A study of Mus musculus with 6 samples.

Results

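The replication-dependent histone genes encode the bulk of the histones that package newly made DNA. They were taken here as every protein-coding gene of GENCODE vM1 (mouse assembly mm9) whose symbol begins with Hist1h, Hist2h, Hist3h or Hist4h. The rule gave 67 of the 22380 protein-coding genes, of which 6 encode linker histone H1, 19 H2A, 18 H2B, 11 H3 and 13 H4. By symbol, 55 belong to Hist1 on chromosome 13, 9 to Hist2 on chromosome 3, 2 to Hist3 on chromosome 11 and 1, Hist4h4, is on chromosome 6. Hist1h2al lies far from the other Hist1 genes, at chr13:51298057-51298434.

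The study mapped p53, a transcription factor stabilised after DNA damage, by ChIP-seq in the spleens of C57/Bl6 mice. Cells were sorted with magnetic beads for B220 into B cells and the depleted remainder, called non-B cells. These mice were Trp53+/+. At 8 weeks they were left unirradiated (mock) or received 7 Gy of whole-body ionizing radiation (IR) and were examined at 4 h. The fifth list came from total splenic cells of Trp53-/- mice, which lack p53, 4 h after 7 Gy, with no age given in the label. Chromatin was pooled across animals and each group had 1 library, so there was no replicate spread and no test between groups. For B cells the mock list held 1413 peaks and the IR list 24507, for non-B cells the mock list held 712 and the IR list 21400, and Trp53-/- spleen had 83. The read depth behind them is unknown.

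Genes of this family are short, mostly lack introns, and sit in dense clusters where many H2A and H2B genes are transcribed away from each other from a shared upstream region. Their transcription is tied to DNA synthesis, with NPAT as a dedicated coactivator. Their mRNAs end in a conserved stem-loop, bound by SLBP, in place of a poly(A) tail.

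The label was checked against this stem-loop, which the selection by symbol had not used. With at most 1 mismatch to the histone mRNA stem-loop consensus, searched on the sense strand from 300 bp before to 300 bp after the annotated gene end, 50 of 67 members held one (74.6%, 95% Wilson interval 63.1 to 83.5), against 0.626% of all protein-coding genes. The letters are shown because they are the feature that defines the family, with the loop in capitals. The form in the first line was found in 27 members and the other forms in 8 each, and each is given at an example locus.

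Hist3h2ba, chr11:58762851-58762866, + strand: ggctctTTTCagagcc

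Hist1h4k, chr13:21842019-21842034, - strand: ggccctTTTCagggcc

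Hist1h2bl, chr13:21807587-21807602, - strand: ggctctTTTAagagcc

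The 17 members without a match near the annotated end included Hist1h1c, Hist1h1d, Hist1h2be, Hist1h2bp and Hist2h4. When the search ran from the TSS instead, 65 members (97%) held a match, but so did 19.2% of all genes, which are longer.

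Promoter letters were counted from 250 bp before to 50 bp after the TSS, on both strands. TATAAA, the core of the TATA box, occurred in 38 members (56.7%), against 13.4% of all protein-coding genes. CCAAT occurred in 57 members (85.1%), against 37.9%. It was present in all 6 H1, all 19 H2A and all 18 H2B promoters, in 10 of 11 H3 promoters, and in 4 of 13 H4 promoters. ATTTGCAT, the octamer read by POU-domain factors such as the product of Pou2f1, occurred in 15 members (22.4%), against 1.72% of all genes, and these were 7 H2A and 8 H2B genes. Adjacent genes with opposite strands count the same letters, so these are not independent occurrences.

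A member was counted as having a peak when the midpoint of at least 1 peak lay between 2 kb upstream of its TSS and 1 kb past its end. In B cells IR, 53 of 67 members had a peak (79.1%, 67.9 to 87.1), against 44% of all protein-coding genes. In non-B cells IR, 54 had one (80.6%, 69.6 to 88.3), against 42.4%. Both intervals lay above the share for all genes. They cover counting error only, and since neighbouring members share peaks they are narrower than independent loci would give.

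Few members had a peak without irradiation. In B cells mock there were 8 (11.9%, 6.18 to 21.8), against 3.16% of all genes, and in non-B cells mock 2 (2.99%, 0.822 to 10.2), against 1.59%.

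No member had a peak in Trp53-/- spleen. A count of 0 of 67 allows a share of up to 4.48%, taken as 3 counts of 67 (the Wilson upper limit is 5.42%), and 0.103% of all genes had a peak there.

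The median member is 530 bp long and the median protein-coding gene 15420 bp, so the members were searched over shorter windows. With a window of equal length for every gene, from 2 kb upstream to 1 kb downstream of the TSS, 77.6% of the members had a peak in each IR list. All genes then stood at 33.3% in B cells IR and 32.5% in irradiated non-B cells. Of the other genes no longer than 1000 bp, 4.26% and 4.1% had one. Those genes may differ from the members in more than length, for example in activity in spleen, which was not tested. When overlapping windows were merged, 28 of 33 histone loci (84.8%) held a peak in each IR list, against 42.6% and 41.3% of all loci.

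**Figure D1:**
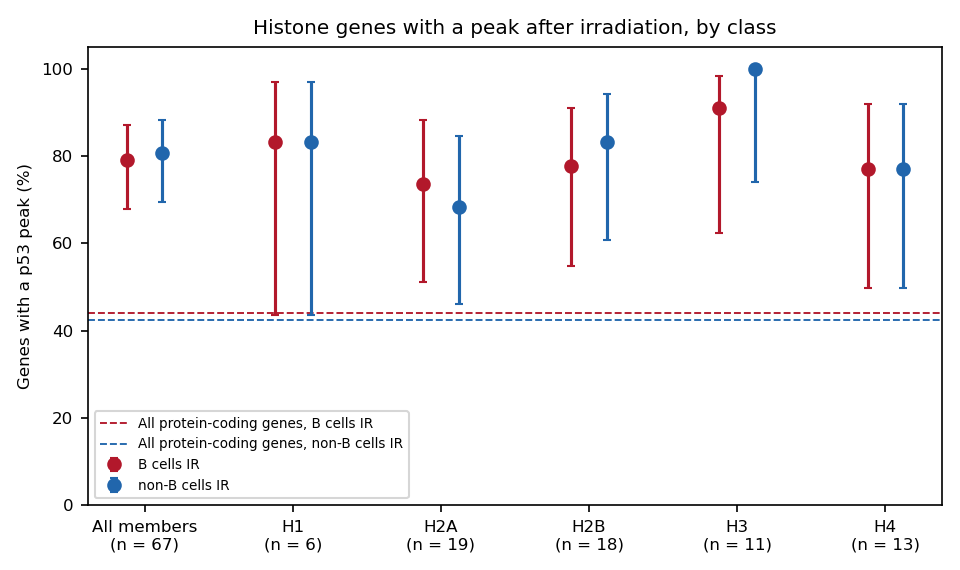
Share of histone genes with at least 1 p53 peak (%, vertical axis) in B cells IR (red) and non-B cells IR (blue), for all 67 members and for each histone class. Points are shares, bars are 95% Wilson intervals for counting error, and dashed lines are the shares of all protein-coding genes, 44% and 42.4%. The point of every class lies above both dashed lines.

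Each histone class had a larger share of genes with a peak than all genes did, and the classes did not separate from one another at these numbers, as the plot of shares by class shows. Among the genes of H1, which binds the linker DNA between nucleosomes, 5 of 6 had a peak in each IR list. H2A and H2B form dimers that are part of the nucleosome core. Of the H2A genes 14 of 19 had a peak in B cells IR and 13 in irradiated non-B cells, and of the H2B genes 14 and 15 of 18. H3 and H4 form the central tetramer. Of the H3 genes 10 of 11 had a peak in B cells IR and 11 of 11 in irradiated non-B cells, and of the H4 genes 10 of 13 in each. The median of the highest value per gene was 26.4 for H4 in B cells IR and 29.1 in irradiated non-B cells. The other classes lay between 17.9 and 21.4 in B cells IR and between 18.4 and 20.6 in irradiated non-B cells.

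The value of a peak is the deposited score, taken from its distribution as the −log10 of the peak caller's p-value. It depends on depth, so it was used for rank within a list, and a percentile below is the rank of a peak among all peaks of its own list. The 54 distinct peaks at members in B cells IR had values from 6.61 to 127, with a median of 16.7. Their median percentile was 41.6, against 48.7 for the peaks assigned to any protein-coding gene. In non-B cells IR the 46 peaks ran from 5.84 to 153 with a median of 18.4, and the median percentile was 47.5, against 49.4. The members were therefore frequent in the IR lists without ranking high in them. Only 5 of the peaks in B cells IR and 1 in irradiated non-B cells lay above the 80th percentile, and 12 and 14 lay at or below the 20th.

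The one pair of genes far above the rest was Hist1h2an and Hist1h2bp, an H2A and an H2B gene transcribed away from each other in the first block of Hist1. In B cells, a peak in the windows of both genes had a value of 12.8 in the mock list and 127 after IR (97.2nd percentile). A further B cells IR peak of 18.4 (47.4th percentile) lay in both windows, inside Hist1h2bp. In non-B cells IR the value was 153 (97.5th percentile). There was no peak at this site in non-B cells mock or in Trp53-/- spleen. The next highest values at any member were 45.6 in B cells IR and 36.3 in irradiated non-B cells.

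The DNA between the start sites of this pair is shown because the highest peak covers all of it, at chr13:21879088-21879329, + strand, 242 bases, with the letters CCAAT and TATAAA, read on either strand, in capitals. It holds 4 CCAAT and 1 TATAAA.

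Hist1h2an/Hist1h2bp: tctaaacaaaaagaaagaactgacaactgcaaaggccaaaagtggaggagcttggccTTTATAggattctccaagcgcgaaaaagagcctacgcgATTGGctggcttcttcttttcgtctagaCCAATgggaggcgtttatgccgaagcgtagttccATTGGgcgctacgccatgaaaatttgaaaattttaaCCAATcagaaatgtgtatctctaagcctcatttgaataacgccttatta

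Below this pair, the highest members in B cells IR were Hist1h3e (45.6), Hist1h1d (45.3), Hist1h4d (44.6) and Hist2h4 (41.7). Hist1h2bh and Hist1h3f followed with a shared peak of 38.3, then Hist1h4c with 35.8. The tenth place went to a peak of 32.8 shared by Hist2h2ab, Hist2h2ac and Hist2h2be and nearest to the Hist2h2be start, and the peak at the Hist2h2ab start itself had 16. Hist1h4d stood at 36.3 in non-B cells IR, Hist2h3b and Hist2h2bb at 36 on a shared peak, and Hist1h1d at 35.5. A shared peak of 35.3 lay in the windows of Hist1h4i and Hist1h2bj, and was centred 39 bp upstream of the Hist1h4i start. Hist1h3e had 34.4 and Hist1h2bm 32.7. The Hist1h2an and Hist1h2bp genes, Hist1h1d, Hist1h3e and Hist1h4d were among the highest 10 in both lists.

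**Figure D2:**
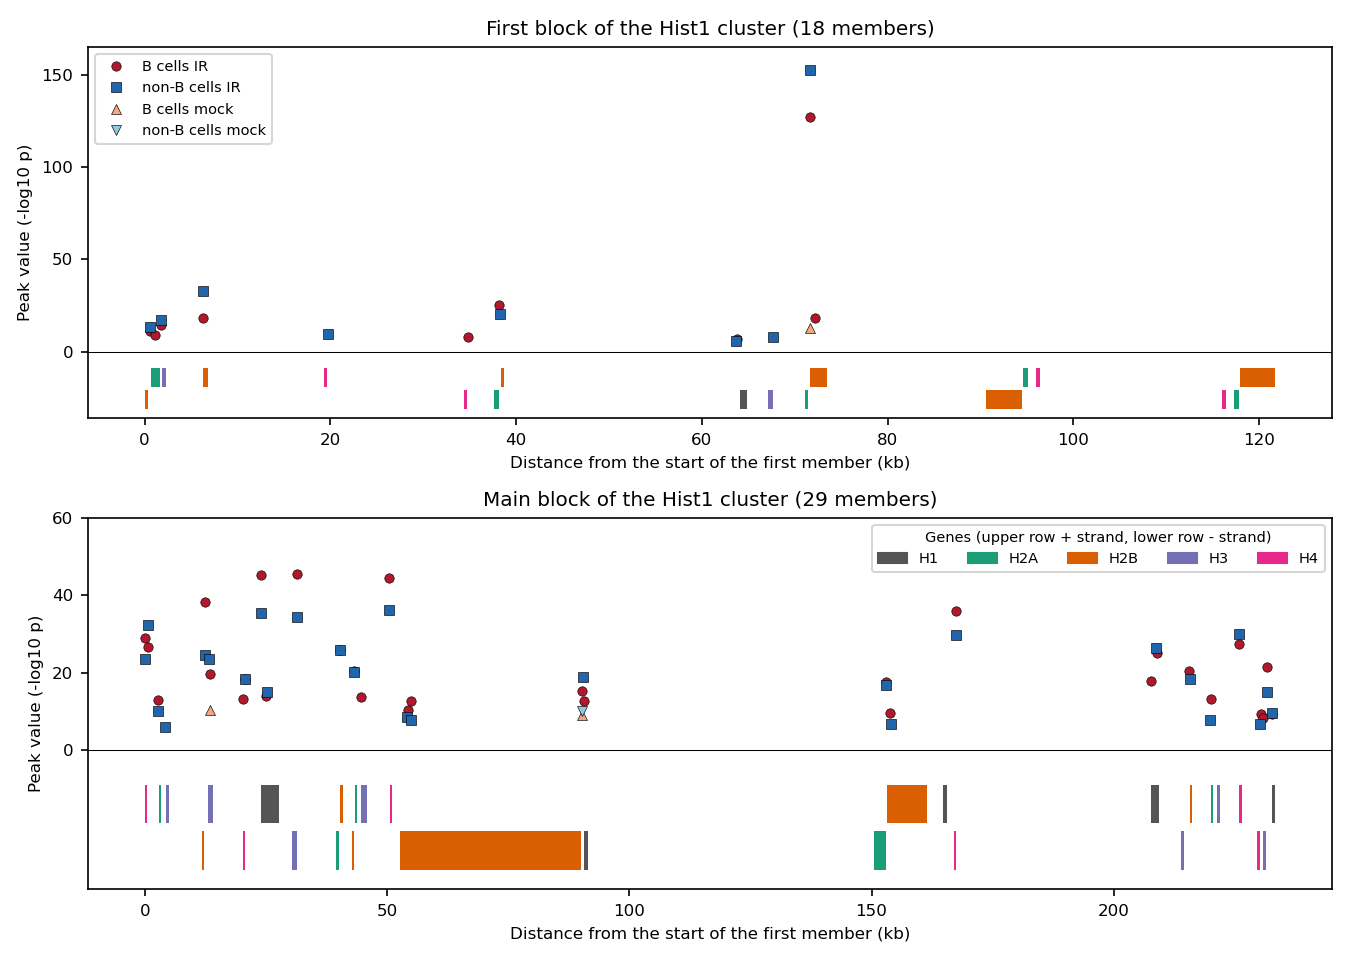
Peak values (taken as −log10 p, vertical axis) along the first block (18 members) and the main block (29 members) of the Hist1 cluster, against distance from the start of the first member (kb). Boxes are genes drawn to scale and coloured by class, with the plus strand above and the minus strand below, and symbols are peak midpoints in 4 lists. One site, between Hist1h2an and Hist1h2bp, reaches 127 and 153, and the right-hand end of the first block has genes but no peaks. Those genes lie in repeated sequence, where an absent peak and an absence of p53 cannot be told apart.

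Mock peaks at members were found at 4 sites in B cells. Besides the Hist1h2an and Hist1h2bp site, Hist1h2bh and Hist1h3f shared a peak of 10.2, Hist1h2be and Hist1h1e one of 9.08, and Hist2h3b and Hist2h2bb one of 9.05. The only member peak in non-B cells mock, with a value of 10.2, lay at the Hist1h2be and Hist1h1e site and overlapped the B cells mock peak there. All 4 B cells mock peaks overlapped a peak of B cells IR, and the non-B cells mock peak overlapped one of non-B cells IR. The Hist1h2be gene model spans 37383 bp, so its window is far longer than that of any other member. Its annotated TSS is at 23712993, but the start codon scored below lies within 23677810-23677829. The mock peaks at this site lay by that TSS and past the end of Hist1h1e, at neither start codon. The peaks nearest the Hist1h2be start codon had 12.7 in B cells IR and 7.66 in irradiated non-B cells. The Hist1h2be window held 4 peaks in B cells IR, 2 of them also in the window of another member. In irradiated non-B cells it held 3, 1 of them shared.

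The peaks lay close to the gene starts. In B cells IR, 41 of the 54 member peaks had their midpoint within 500 bp of a protein-coding TSS (75.9%, 63.1 to 85.4), against 36% of all peaks assigned to genes. In non-B cells IR it was 38 of 46 (82.6%, 69.3 to 90.9), against 39.5%. With the window of equal length for every gene the shares were close. They were 85.4% against 80.4% in B cells IR and 90.5% against 83.3% in irradiated non-B cells, and both intervals for the members (72.8 to 92.8 and 77.9 to 96.2) held the share of all genes.

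**Figure D3:**
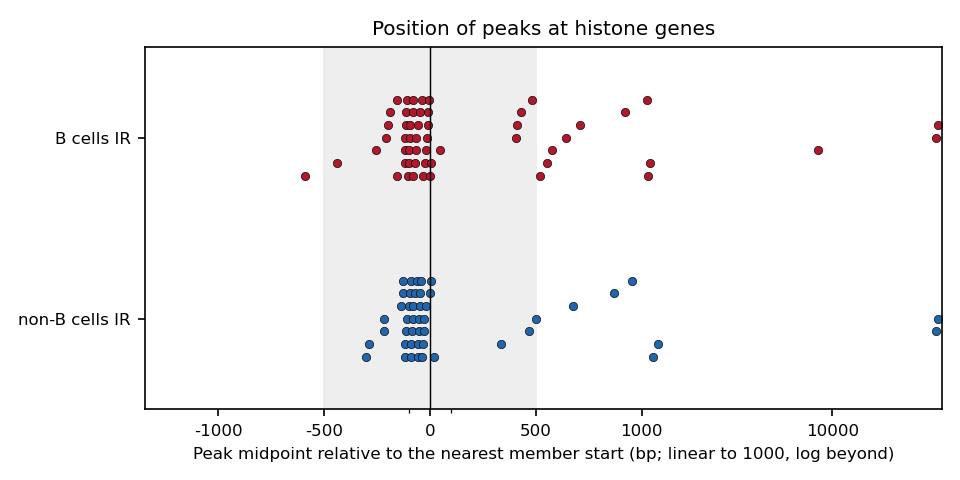
Distance of the midpoint of each member peak from the nearest member TSS (bp, horizontal axis, linear to 1000 bp and logarithmic beyond), with negative values upstream, for the 54 peaks of B cells IR and the 46 of non-B cells IR. The grey band marks 500 bp on either side, and the vertical spread of points carries no meaning. Most points lie just upstream of the start in both lists. The points farthest downstream are Hist1h2be peaks, measured from a TSS far from its start codon.

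The members form 13 divergent pairs, in which genes on opposite strands start 1000 bp or less apart, with 167 to 692 bases (median 240) between the starts. Divergent pairs of other genes were not counted, so the counts of pairs have no background share beside them. A peak reached into the region between the starts in 8 pairs in B cells IR and in 9 pairs in irradiated non-B cells, of 13 each. Besides Hist1h2an and Hist1h2bp, these included Hist2h2ac and Hist2h2be (32.8 in B cells IR, 27.9 in irradiated non-B cells) and Hist1h2ae and Hist1h2bg (25.8 in both lists). The pair Hist1h2ah and Hist1h2bk had its peak in non-B cells IR only, at 7.74. By gene, 17 of the 26 paired members had a peak in B cells IR (65.4%) and 19 in irradiated non-B cells (73.1%), against 36 (87.8%) and 35 (85.4%) of the 41 others. The share over all protein-coding genes was 44% in B cells IR and 42.4% in irradiated non-B cells. The paired members without a peak include Hist1h2bq, Hist1h2ao, Hist1h2ap and Hist1h2br, and the others include Hist1h4m and Hist1h4n. These genes lie in the repeated sequence described below, where an absent peak and an absence of p53 cannot be told apart.

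The peaks were unevenly spread along Hist1. The main block, from 23622919 to 23856283 on chromosome 13, had a peak at 28 of its 29 members in each IR list. The first block, from 21807632 to 21929399, had one at 10 of 18 in B cells IR and at 11 in irradiated non-B cells. The short block from 22126982 to 22135545 had 2 and 4 of 5. Hist1h2al, alone at 51298057, had a peak in B cells IR only. All 9 members of Hist2 had a peak in B cells IR and 8 in irradiated non-B cells, and the 2 Hist3 genes and Hist4h4 had one in both.

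No peak was found in either IR list, or in the other lists, at 10 members. In genomic order these were Hist1h2bq, Hist1h2ao, Hist1h4m, Hist1h4n, Hist1h2ap, Hist1h2br, Hist1h2ag, Hist1h1t, Hist1h2ba and Hist1h2aa. Hist1h1t, Hist1h2ba and Hist1h2aa encode variants known from the testis, and the last 2 are the only members of their block.

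The first 6 lie in an inverted duplicate at the end of the first block, where an arm from 21898281 to 21904016 is repeated in the other orientation from 21923636 to 21929399 with 19619 bases between. Of the 31-base words of the first arm, 99.5% also occur in the second. Hist1h2bq and Hist1h2br were identical over 3788 bases, Hist1h2ao and Hist1h2ap over 519, and Hist1h4m and Hist1h4n differed at 1 of 402. The region between the starts of Hist1h2bq and Hist1h2ao is shown as an example of sequence present more than once in the genome, since its exact reverse complement lies between Hist1h2ap and Hist1h2br, at chr13:21925445-21925611. It is at chr13:21902069-21902235, + strand, 167 bases, with CCAAT on either strand in capitals.

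Hist1h2bq/Hist1h2ao: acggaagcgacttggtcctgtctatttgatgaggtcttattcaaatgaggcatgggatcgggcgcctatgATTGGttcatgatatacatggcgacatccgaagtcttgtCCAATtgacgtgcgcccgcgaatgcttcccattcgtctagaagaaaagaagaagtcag

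Around the starts (500 bp either side), the share of 31-base words found once in the genome was at most 3.61% at these 6 genes. Over the 10 members with no peak in an IR list the median was 3.19%, with a range of 0 to 100%, and over the 50 with a peak in both it was 68.6%, with a range of 27.3 to 100%. Hist1h1t (100%), Hist1h2aa (94.7%) and Hist1h2ba (82.1%) were largely unique in sequence and had no peak either. Hist1h2ag, also without a peak, lay between at 49.2%. The words inside the peaks had a median of 1 genomic copy in 53 of 54 peaks in B cells IR and in 46 of 46 in irradiated non-B cells. The share of single-copy words in a peak had a median of 100% in both lists, but fell to 22.5% and 64.4% in the lowest. In the highest peak, at Hist1h2an and Hist1h2bp, it was 77.6% in B cells IR and 79.1% in the other IR list. The study's methods give default alignment settings, but the sources used here do not state whether multiply placed reads were kept. An absent peak in the duplicate and an absence of p53 therefore cannot be told apart. Without the 6 genes, 86.9% of the members had a peak in B cells IR and 88.5% in irradiated non-B cells.

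**Figure D4:**
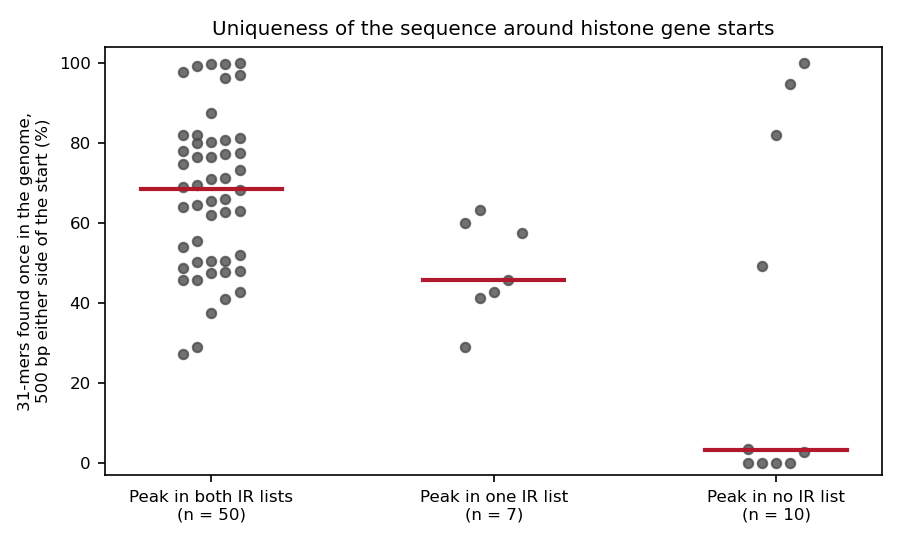
Share of 31-base words around each member's TSS (500 bp either side) that occur once in the mm9 genome (%, vertical axis), for members with a peak in both IR lists (50), in 1 (7) or in none (10). Each point is a gene and red lines are medians. The group with no peak has a median of 3.19% and holds genes near 0, genes with largely unique starts, and Hist1h2ag at 49.2%.

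The next comparison asked how far the members with a peak were shared between B and non-B cells after irradiation. Both IR lists had a peak at 50 members, which were 94.3% (84.6 to 98.1) of those in B cells IR and 92.6% (82.4 to 97.1) of those in irradiated non-B cells. Over all protein-coding genes the shares were 90.6% and 93.9%, inside both intervals. The members found in 1 list had low values there. In B cells IR alone these were Hist1h2al (10.2), Hist2h2aa2 (8.53) and Hist1h4k (7.66). In non-B cells IR alone they were Hist1h4j (9.8), Hist1h3i (7.99), and Hist1h2ah and Hist1h2bk, which shared the peak of 7.74. All lay at or below the 14.3rd percentile of their list. The Hist2h2aa2 peak was the only member peak whose words had a median of 2 genomic copies, so it is uncertain which copy it came from.

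The 42 member peaks paired between the IR lists by overlap had similar ranks, with a Spearman's rho of 0.842 between their values, given as a description since the points are peaks of the same 2 libraries. The difference in percentile, non-B cells minus B cells, had a median of -4.3 and ran from -24.7 to 51.7, and 25 of the 42 ranked higher in B cells. The largest difference was at Hist2h2aa1 and Hist2h3c1, with a value of 9.93 in B cells IR (12.2nd percentile) and 25.3 in irradiated non-B cells (63.9th percentile). Only 29% of the words around the Hist2h2aa1 start and 64.4% of those in the non-B cells peak were single copy, and the separate peak at Hist2h2aa2 was found in B cells IR alone, so this difference shares the doubt about copies. Hist1h4i and Hist1h2bj had 17.4 and 35.3, and Hist1h2bm 18.4 and 32.7. With 1 library a group, none of these differences could be set against a spread.

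**Figure D5:**
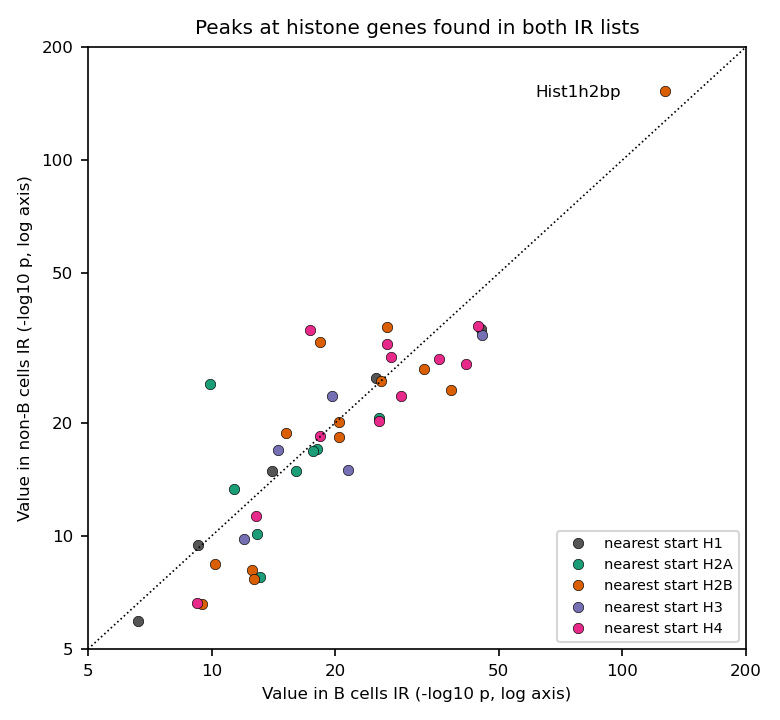
Values (taken as −log10 p, log axes) of the 42 overlapping member peaks in B cells IR (horizontal) and non-B cells IR (vertical), coloured by the class of the nearest member TSS. The dotted line marks equal values. The peak nearest the Hist1h2bp start stands apart at 127 and 153, and the others lie between 5 and 50 on both axes.

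The p53 response element is a pair of decamers, each RRRCWWGYYY (R is A or G, W is A or T, Y is C or T). An unsplit element, with no spacer, the C and G cores of both decamers intact and at most 3 mismatches, was looked for within 300 bp of each midpoint. It was found at 4 of 54 member peaks in B cells IR (7.41%, 2.92 to 17.6), against 11.2% of all peaks assigned to genes. Of the 46 peaks in non-B cells IR, 4 held one (8.7%, 3.43 to 20.3), against 11%. The member shares did not separate from those of all gene peaks. The same windows of all gene peaks moved by 10 kb gave 3.16% and 3.25%.

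The same 4 elements were found in both IR lists, each with 3 mismatches, and they are printed because no other unsplit element was found near a member peak at this number of mismatches. The first was also within 300 bp of the midpoint of the B cells mock peak, though outside that narrow peak. In B cells IR all 4 lay inside the peak, and in irradiated non-B cells all but the Hist1h2bf element did. Letters are those of the + strand, with the cores in capitals.

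Hist1h2bp, chr13:21879380-21879399: taaCatGcctgagCctGtta

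Hist1h2bf, chr13:23666044-23666063: tagCagGctcaggCatGgtt

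Hist1h1c, chr13:23831514-23831533: agaCttGtttgtgCtgGgct

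Hist2h2be, chr3:96025085-96025104: aatCatGcctgaaCtgGcca

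All 4 lay wholly in exons. The Hist1h1c element was in an untranslated region, and each of the others covered 4 untranslated bases and the first 16 coding bases of an H2B gene. The Hist1h2bp element thus lay just past the start of the gene, outside the region printed for the pair, and inside the highest peak. The peak values at the other 3 were not exceptional, with highest values in B cells IR of 20.4 at Hist1h2bf, 25.2 at Hist1h1c and 32.8 at Hist2h2be.

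The overlap with H2B start codons was followed after these elements had been seen. Only the register of those H2B elements was scored, so the genes that held them were certain to be counted. An element at the start codon was found in 3 of 18 H2B genes (16.7%), in none of the H1, H2A, H3 or H4 genes, and in 13 of 21623 protein-coding genes (0.0601%). The last count includes the H2B genes, and these shares are a description only. The H2B reading frame begins with nearly fixed letters, and 13 of the 18 genes share ATGcctga. All 4 core bases were present in 8 of the 18, of which 5 had more than 3 mismatches. An H2B gene with the element and one without it are shown on the strand of the gene, with the start codon in capitals.

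Hist1h2bf, chr13:23666044-23666063, - strand, 3 mismatches: aaccATGcctgagcctgcta

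Hist1h2bk, chr13:22127752-22127771, + strand, 5 mismatches: cgccATGcctgagcctgcga

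Hist1h2bk had no peak in B cells IR and one of 7.74 in irradiated non-B cells, and Hist1h2bf had 20.4 and 20.1. Of the 3 H2B genes with the element, Hist1h2bf had the lowest values. Hist1h2bp had 127 and 153 and Hist2h2be 32.8 and 27.9, and no H2B gene without the element reached the values of Hist1h2bp. Other H2B genes without an unsplit element at the start codon lay both above and below Hist1h2bf. Higher values in both lists were found at Hist1h2bg (5 mismatches, 25.8 in each) and Hist1h2bn (5 mismatches, 25.5 and 20.6). So it was at Hist1h2bh (6 mismatches, 38.3 and 24.5) and Hist2h2bb (6 mismatches, 26.8 and 36), whose peaks held a decamer pair with a spacer of 13 bases. Lower values in both lists were found, for example, at Hist1h2bc (4 mismatches, 17.7 and 16.8). Decamer pairs with a spacer of up to 15 bp brought the share of member peaks to 40.7% in B cells IR and 34.8% in irradiated non-B cells, against 42.5% and 41.4% of all gene peaks. The only pair with no mismatch was found near the B cells IR peak at Hist1h2al, with a spacer of 11 bases. It lies within 300 bp of the midpoint but outside the peak itself, past the end of the gene, at chr13:51297745-51297775, + strand, and within no protein-coding gene.

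Hist1h2al: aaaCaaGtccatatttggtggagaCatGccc

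Histone genes that are expressed outside S phase were set beside these. Of 11 such genes listed, 10 were typed as protein-coding and 1, H1f0, was not used. A peak was found at 7 of 10 in B cells IR, 9 in irradiated non-B cells, 2 in B cells mock, 1 in the other mock list and none in Trp53-/- spleen. For all genes the shares were 44%, 42.4%, 3.16%, 1.59% and 0.103% in that order. H2afj, an H2A variant gene, had the highest values, 93.9 and 153 in the IR lists. Cenpa, the centromeric H3 variant, had 45.8 and 59.9, and H2afv, an H2A.Z gene, 43.5 and 29.8. H2afx, whose product is phosphorylated at DNA breaks, had 9.23 and 9.27, below the 10th percentile of each list. H2afz and H2afy had 13.6 and 10.9 each, and H3f3b 14.5 and 14.1. H3f3a (13) and H2afy2 (14.2) had a peak in non-B cells IR only, and H1fx had none.

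Of 20 genes for factors that act in histone gene transcription or in processing of the 3′ end, 18 had a peak in B cells IR and 17 in irradiated non-B cells, with none in the other lists. Pou2f1, which encodes the octamer-binding factor Oct-1, had the highest values, 143 and 174, over a gene of 137525 bp. Npat had 40.7 and 48.7, and Hinfp, a factor for H4 promoters, 22.6 and 30.1. Casp8ap2 had 27.6 and 29.8. Among the 3′ end factors, Cpsf3, the endonuclease, had 52.3 and 62.2, Zfp473 40.4 and 50.1, Lsm10 32.6 and 34, Lsm11 26.5 and 41.9, Cpsf2 21.4 and 13.1, Sympk 13.1 and 13.1, and Slbp 18.3 and 15.5. Eri1, a 3′ exonuclease that acts on histone mRNA, had 28.9 and 41.9. Srrt had 20.4 and 16.4, Ncbp1 12.1 and 25.3, Mcrs1 18.4 and 26.5, and Yy1 31.2 and 25.7. Of the cyclin E genes, whose kinase acts on NPAT, Ccne1 had 7.46 and 11.2 and Ccne2 8.33 in B cells IR only. Cdk2 and Cstf2 had no peak. These genes are longer than the members, and 44% and 42.4% of all genes had a peak in the same lists.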

How the data were processed

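p53 ChIP-seq libraries (antibody NCL-p53-CM5p) were read as the 5 deposited peak lists. The sixth library, an input, was not used. Per the submitters' notes and the study's methods, the authors masked bases of low quality, aligned to mm9 with BWA 0.6.2 and ran the MACS peak caller on each library of pooled chromatin. The deposited value of each peak, as made by the authors, was taken from its distribution as the −log10 of a p-value. The lists hold values weaker than the p-value limit stated in the methods, so that limit was not applied to this column. The value is not normalised between libraries.

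Groups came from the sample labels. Coordinates are 1-based on mm9 (NCBIM37), genes are those of GENCODE vM1, and sequences were read from that genome. Intervals are 95% Wilson intervals. With 1 library a group no test was run. The members, gene lists and searches were chosen with earlier results of these data known. Members were named when among the 10 highest in an IR list, in a mock list, in 1 IR list only, without a peak, or with an unsplit element, and both other gene lists were named in full. The remaining names were picked after their values were seen. They are Hist2h2aa1, Hist2h3c1, the divergent pairs, the H2B genes compared at the start codon and the stem-loop examples. Alternatives were other windows, peak assignments, minimum values, element and stem-loop settings. The assignment of peaks to genes and the p53 element search were tested on planted cases, and peak overlap on part of the real lists. The other counting steps had no such test. Python 3.11.15, numpy 2.4.6, pandas 2.3.3, scipy 1.17.1, pysam 0.24.0 and matplotlib 3.10.9 were used.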

Additional observations from a re-analysis of the deposited data

How the results depend on the processing

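Of 90 alternative values for the main quantities, 74 moved by less than their counting interval and 16 moved by more. Some of the 74 could not move. Their setting changed only the comparison genes or peaks, or applied a stricter cutoff to a count of 0. The member share minus that of all genes, outside Trp53-/- spleen, had 48 alternative values. Of these, 36 stayed within the interval, 10 moved by more and 2 changed sign. Counting a peak only for its nearest TSS gave 5.97% of members in B cells mock and 59.7% in each IR list, against 2.49% of all genes in B cells mock and 37.5% and 36% in the IR lists. Peaks with a value of at least 20 were at 44.8% of members in each IR list, against 27.4% and 26.2%, and at 0% in both mock lists, where the member share minus that of all genes became -0.424 (B cells) and, for the non-B compartment, -0.308 percentage points. Without the duplicated genes 88.5% of members had a peak in non-B cells IR. The share of B cells IR members also in non-B cells IR was 83.3% at values of at least 20 (82.4% over all genes) and 79.6% over distinct peaks (74.9%), and the share of non-B cells IR members also in B cells IR was 97.9% at values of at least 8 (93.4%). With at most 2 mismatches 0% of member peaks held an unsplit element in either IR list (6.28% and 6.32% of all gene peaks), and with spacers allowed 40.7% and 34.8% did. The stem-loop share was 97% when searched from the TSS. Removal of the duplicated genes, comparison with other genes of at most 1000 bp, ranking against peaks near a TSS and the stem-loop search from the TSS were chosen after seeing the data. No paired analysis was possible because there was a single library per condition, which also meant that none could be omitted. Read depth is unknown, so a site without a peak may have been bound and not called.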
